A study of Mus musculus with 10 samples.

Results

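The genes described here are the subunits of the hypoxia-inducible factor (HIF) and the enzymes that sense oxygen for it, 8 genes in all, each read by its name from the 55401 genes of the deposited table. They are Hif1a and Epas1 (the alpha subunits HIF-1α and HIF-2α), Arnt (their shared beta subunit), Egln1, Egln2 and Egln3 (the prolyl hydroxylases PHD2, PHD1 and PHD3), Vhl (the von Hippel-Lindau protein) and Hif1an (the asparagine hydroxylase FIH). All 8 were found, with 1 row each. Poly(A) RNA was sequenced in 10 libraries from E14, an established line of mouse embryonic stem cells. Mutant cells carry the ANKRD11 Y347A substitution, made by CRISPR/Cas9 genome editing, and gave 6 libraries in 3 numbered sets of 2. Wild-type cells, labelled untreated, gave 4 libraries in 2 numbered sets of 2. ANKRD11 is a nuclear regulator of transcription, studied in the series for its contact with cohesin, and a substitution in it does not show in transcript levels, so the genotype labels could not be checked here. What a set is (a clone, a culture or a day) and the oxygen level of the cultures are unstated in the labels, so the p-values reflect only how far these sets spread, part of which may be technical.

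In cells with enough oxygen, the prolyl hydroxylases modify the alpha subunits, VHL then recognises the modified subunit and a ubiquitin ligase marks it for destruction, and FIH separately blocks its contact with coactivators. When oxygen is short, the alpha subunit escapes, pairs with ARNT and switches on genes of glycolysis, glucose uptake and vessel growth. Control acts mainly on the alpha proteins, so mRNA levels do not show HIF activity, and Egln1 and Egln3 are themselves HIF targets, which makes them a feedback arm of the pathway.

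Between the genotypes 3 of the 8 genes were called at an adjusted p under 0.05, as were 17.5% of all tested genes. How far each call rested on single sets is given below. Promoter sequence is shown for these 3, as far as it lies outside every annotated exon, from the RefSeq promoter table (GRCm38.p6, the assembly that mm10 denotes). Capitals mark ACGTG or GCGTG on either strand, the core letters bound by HIF. The Egln1 stretch is chr8:124949325-124949504, the Egln3 stretch chr12:54203875-54204124 (both minus strand) and the Hif1a stretch chr12:73907617-73907866 (plus strand, inside an intron of a longer Hif1a transcript).
Egln1: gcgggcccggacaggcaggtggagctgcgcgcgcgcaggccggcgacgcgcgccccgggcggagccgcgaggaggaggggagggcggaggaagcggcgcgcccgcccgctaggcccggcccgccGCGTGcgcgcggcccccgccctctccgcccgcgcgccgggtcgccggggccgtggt
Egln3: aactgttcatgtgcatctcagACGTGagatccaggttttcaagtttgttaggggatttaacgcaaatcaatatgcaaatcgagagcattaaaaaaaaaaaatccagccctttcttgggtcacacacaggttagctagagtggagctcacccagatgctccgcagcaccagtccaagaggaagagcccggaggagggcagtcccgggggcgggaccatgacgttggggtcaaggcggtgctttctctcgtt
Hif1a: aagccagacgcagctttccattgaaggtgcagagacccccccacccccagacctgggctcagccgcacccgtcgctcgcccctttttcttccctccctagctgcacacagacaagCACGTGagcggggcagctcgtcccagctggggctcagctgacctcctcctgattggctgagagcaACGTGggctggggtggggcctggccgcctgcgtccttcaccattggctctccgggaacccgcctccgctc

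The stretches differ in makeup and in where the letters lie. The 300-base window around the RefSeq start (250 bases before, 50 after) was 86.0% G or C for Egln1, 69.3% for Hif1a and 54.7% for Egln3, against a median of 52.7% over all 32851 windows of the table. Counting from the start with upstream bases negative, Egln3 holds 1 ACGTG at -229. Egln1 holds a GCGTG at -126 and an ACGTG at -68, which is not printed because it lies in the first exon of the GENCODE transcript. Hif1a holds ACGTG at -70 and a pair on opposite strands at -135 and -134 that overlap as CACGTG. Of the members that did not pass the test, Egln2 holds 3 of each core in its first window and a GCGTG in its second, Arnt holds 1 GCGTG, and Vhl and Hif1an hold neither. Epas1 is not in that table. In all, 5 of 7 members with a window hold either core, while 43.8% of all windows do (19.6% hold ACGTG and 32.4% GCGTG). These are matches of letters and say nothing of binding.

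TPM, the deposited unit, gives transcript abundance per length on a fixed total, so sequencing depth is unknown and any rise of abundant transcripts takes from the others. A library had 12473 to 12812 genes at 1 TPM or more, and all 12 stem cell markers checked, such as Dppa5a, averaged at least 1 TPM, with summed levels of 10061 to 11899 TPM in mutant and 11197 to 11892 TPM in wild-type libraries. Most of that sum was Dppa5a (7350 TPM in mutant and 8115 TPM in wild type), and of the 12 markers 2 were called higher and 3 lower in the mutant. Over all tested genes 6.97% were called higher and 10.5% lower. Markers of other cell types were low but their sums did not overlap between genotypes. Nor did the single libraries of 31.8% of all tested genes. Primitive endoderm markers (1 of 8 averaging at least 1 TPM) summed to 32.9 to 44.0 TPM in mutant and 26.3 to 31.3 TPM in wild-type libraries, and trophoblast markers (5 of 8) to 31.7 to 43.6 TPM in mutant and 23.3 to 29.6 TPM in wild-type libraries. Fibroblast markers (3 of 11, S100a4 and Dcn at 0 in every library) summed to 41.7 to 53.6 TPM in mutant and 57.6 to 66.2 TPM in wild-type libraries, and endothelial markers (2 of 8, Cdh5 and Emcn at 0) to 45.2 to 58.9 TPM in mutant and 67.6 to 75.0 TPM in wild-type libraries. Most of each sum came from 1 gene, Lama1, Tfap2c, Cald1 and Pecam1 in the order of the lists, so a sum does not show that such cells were present. Their part in the results below was not tested, and in bulk RNA fewer cells of a type and less RNA per cell cannot be told apart.

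All 8 genes averaged at least 1 TPM over the 10 libraries and entered the test, which compared 3 mutant with 2 wild-type set means of log2(TPM + 1) in limma over 12797 genes. Egln3 and Egln1 rose and Hif1a fell in the mutant, while Epas1, Arnt, Egln2, Vhl and Hif1an did not pass at a Benjamini-Hochberg adjusted p of 0.05. Of all tested genes 17.5% were called, 6.97% as higher and 10.5% as lower in the mutant. The 3 of 8 calls stand beside that background, but the members were chosen with earlier results of these data known. The count is therefore no independent evidence, and the 8 genes were not tested as a group. Each level given below as a mean is in TPM ± SD across the sets (n = 3 mutant, n = 2 wild type). Each fold change is the mutant minus the wild-type mean of log2(TPM + 1) ± SE, a scale that shrinks the change of low genes.

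**Figure D1:**
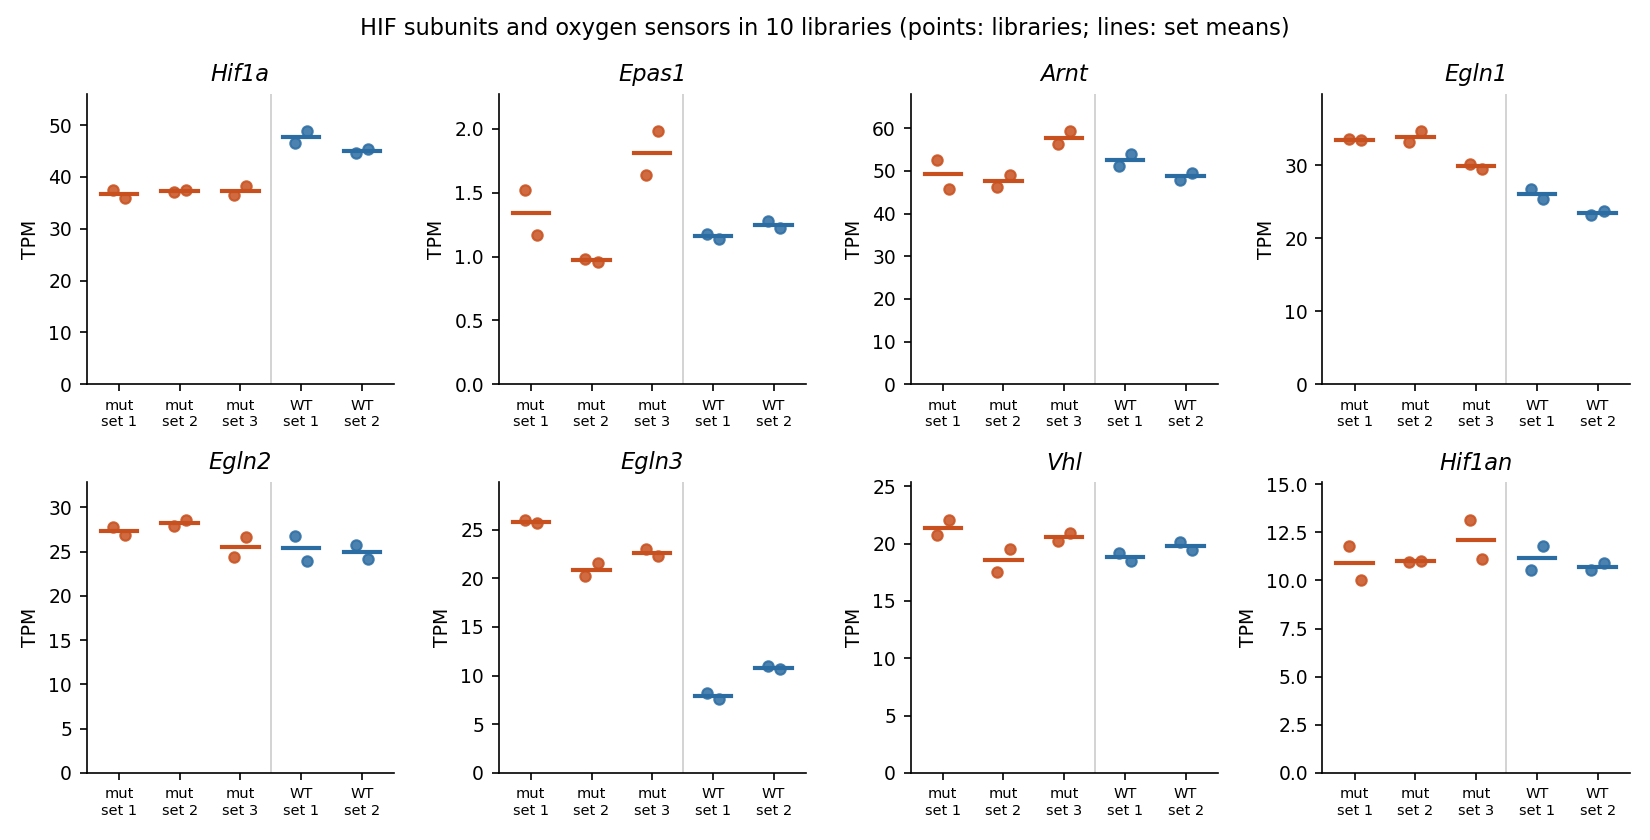
TPM of the 8 genes in each library (points, 2 per set) with set means (lines), mutant sets left of wild-type sets, each panel on its own axis from 0. The mutant points of Egln3 (20.19 to 26.00 TPM) and Egln1 (29.49 to 34.62 TPM) all lie above the wild-type points. Those of Hif1a (35.96 to 38.18 TPM) all lie below them, and the other 5 genes overlap. Of all tested genes, 31.8% had no overlap.

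Among the hydroxylases, Egln3 showed the largest difference. Egln3 (ENSMUSG00000035105.5, mm10 chromosome 12, 54178981 to 54203860, minus strand, protein coding) encodes PHD3, the prolyl hydroxylase most strongly induced by hypoxia in many cell types. Its TPM was 26.00 and 25.64 in mutant set 1, 20.19 and 21.57 in set 2, then 23.01 and 22.26 in set 3, against 8.17 and 7.54 in the first and 10.94 and 10.70 in the second wild-type set. Every mutant library was well above every wild-type library, while the libraries of a set lay close together. The set means averaged 23.1 ± 2.50 TPM in the mutant and 9.34 ± 2.10 TPM in the wild type, a ratio of 2.48 (log2 fold change 1.23 ± 0.15, limma adjusted p = 0.0066). This change was larger in size than that of 98.4% of tested genes.

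Egln3 was also the only one of the 8 called between sets of 1 genotype as deposited. In a model of the 10 libraries by set, the 3 mutant sets differed (limma F test, adjusted p = 0.036), and wild-type set 2 lay above set 1 by 0.42 ± 0.06 on the log2 scale (adjusted p = 0.020). Over all tested genes 19.6% passed the first of these tests and 2.75% the second. Both rest on the spread between the 2 libraries of a set. Leaving out any 1 mutant library or either library of wild-type set 2 ended the Egln3 call among mutant sets (adjusted p 0.059 to 0.124), and leaving out any 1 wild-type library ended the wild-type call (0.082 to 0.128). Over all alternatives adjusted p ran from 0.022 to 0.124 for the mutant sets and from 0.016 to 0.128 for the wild-type sets. Relative to the wild-type mean, mutant sets 1, 2 and 3 stood at 1.39, 1.10 and 1.21 on the log2 scale, and wild-type sets 1 and 2 at -0.21 and 0.21.

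Egln1 (ENSMUSG00000031987.6, chromosome 8, 124908587 to 124949324, minus strand, protein coding) encodes PHD2, the main hydroxylase of the alpha subunits when oxygen is plentiful. Its TPM was 33.54 and 33.40 in mutant set 1, 33.17 and 34.62 in set 2, then 30.18 and 29.49 in set 3, against 26.72 and 25.40 in wild-type set 1 and 23.24 and 23.68 in set 2. All mutant libraries were above all wild-type libraries, with mutant set 3 the nearest to them. The means were 32.4 ± 2.23 TPM in the mutant and 24.8 ± 1.84 TPM in the wild type, a ratio of 1.31 (0.37 ± 0.10, limma adjusted p = 0.041). The 3 mutant sets were not called different as deposited (limma F test, adjusted p = 0.062) but were after median-of-ratios (0.024) and quantile rescaling (0.019).

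Egln2 (ENSMUSG00000058709.11, chromosome 7, 27158658 to 27166802, minus strand, protein coding) encodes PHD1, which hypoxia does not usually induce. Its TPM was 27.76 and 26.87 in mutant set 1, 27.87 and 28.57 in set 2, then 24.34 and 26.65 in set 3, against 26.74 and 23.97 in wild-type set 1 and 25.75 and 24.16 in set 2. The groups overlapped, with means of 27.0 ± 1.39 TPM in the mutant and 25.2 ± 0.283 TPM in the wild type (log2 fold change 0.10 ± 0.08, 95% interval -0.10 to 0.30, limma adjusted p = 0.443).

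Because TPM is per length, the hydroxylase transcripts can be added up. The sum of Egln1, Egln2 and Egln3 was 77.5 to 87.3 TPM in mutant and 56.9 to 61.6 TPM in wild-type libraries, 82.5 ± 4.34 and 59.3 ± 0.0247 TPM over set means. Egln3 made up 28.0% ± 2.50 of that sum in the mutant and 15.8% ± 3.55 in the wild type, and Egln2 32.7% ± 1.24 in the mutant and 42.4% ± 0.449 in the wild type (SD over sets, n = 3 and n = 2). Neither share overlapped between the genotypes in single libraries. Egln1 held 39.3% ± 1.39 in the mutant and 41.8% ± 3.10 in the wild type, and its shares overlapped. Without wild-type set 1 the difference was 9.73 percentage points for Egln3 and -0.36 for Egln1, and without wild-type set 2 it was 14.7 and -4.74 points. Egln3 was the least abundant of the 3 prolyl hydroxylases in all 10 libraries, with an Egln3 to Egln1 ratio of 0.609 to 0.775 in mutant and 0.297 to 0.471 in wild-type libraries. Such ratios within a library are the same when the library is multiplied by a constant, but not under quantile normalization. They were not tested, since the genes were chosen with results known.

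**Figure D2:**
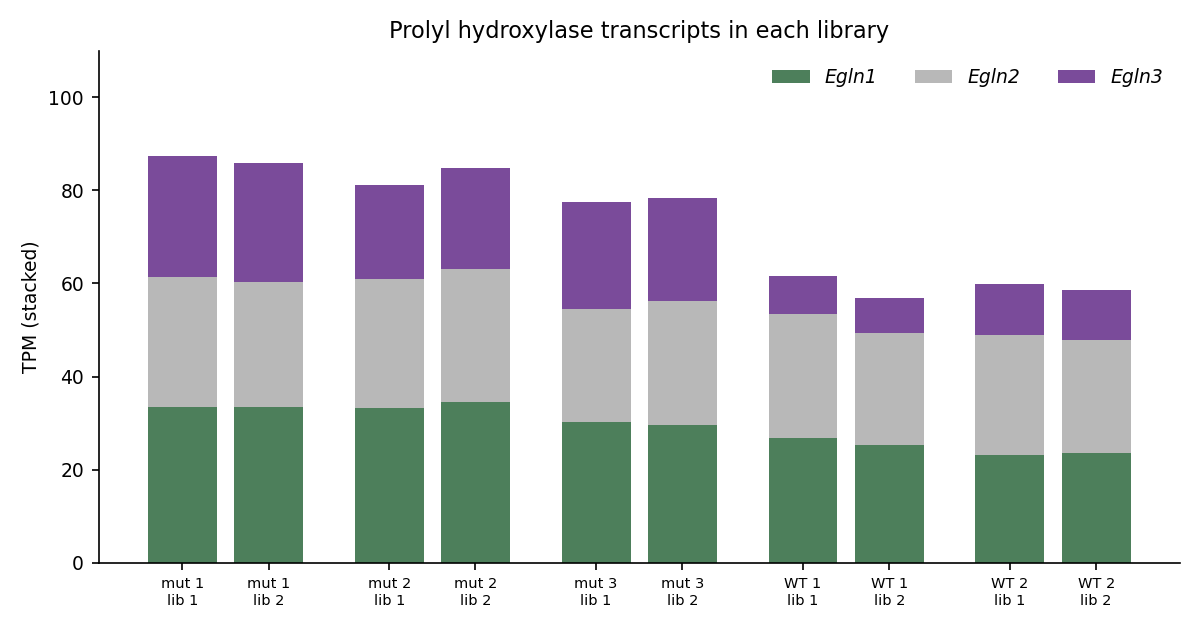
Stacked TPM of Egln1 (bottom), Egln2 and Egln3 (top) in each library, the 6 mutant libraries left of the 4 wild-type libraries. The summed height is 77.5 to 87.3 TPM in mutant and 56.9 to 61.6 TPM in wild-type libraries, and the Egln3 part differs most.

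Among the HIF subunits, Hif1a fell while its partner Arnt did not pass the test. Hif1a (ENSMUSG00000021109.13, chromosome 12, 73901375 to 73947530, plus strand, protein coding) had 37.39 and 35.96 TPM in mutant set 1, 37.14 and 37.55 in set 2, then 36.56 and 38.18 in set 3, against 46.61 and 48.77 TPM in wild-type set 1 and 44.69 and 45.39 in set 2. All mutant libraries lay below all wild-type libraries and within a narrow range. The means were 37.1 ± 0.394 TPM in the mutant and 46.4 ± 1.87 TPM in the wild type, a ratio of 0.801 (log2 fold change -0.31 ± 0.07, limma adjusted p = 0.033). The mutant sets were not called different from each other (limma F test, adjusted p = 0.870). Hif1a overlaps the antisense gene Gm15283, whose mean was 0.198 TPM over the 10 libraries, and the coding gene Gm49321, at 0 in the table. The labels do not state whether counting used strand.

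Arnt (ENSMUSG00000015522.18, chromosome 3, 95434388 to 95497240, plus strand, protein coding) was the most abundant of the 8 by mean, with 52.55 and 45.78 TPM in mutant set 1, 46.16 and 49.03 in set 2, then 56.28 and 59.23 in set 3, against 51.03 and 53.90 TPM in wild-type set 1 and 47.92 and 49.50 in set 2. Mutant set 3 was above all wild-type libraries and the other mutant libraries overlapped them or lay below (log2 fold change 0.02 ± 0.10, 95% interval -0.22 to 0.26, limma adjusted p = 0.903; F test among mutant sets, adjusted p = 0.052, or 0.018 and 0.037 without the first or second library of mutant set 1). The sign of this difference was negative in 4 of 26 alternatives, among which the set-number block and the omission of mutant set 3 give the same estimate. Hif1a stood at 0.645 to 0.805 of the Arnt level in mutant and 0.905 to 0.933 of it in wild-type libraries.

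Epas1 (ENSMUSG00000024140.10, chromosome 17, 86753700 to 86833410, plus strand, protein coding), whose protein is best known from endothelium, kidney and lung, was the rarest of the 8. Its TPM was 1.52 and 1.17 in mutant set 1, 0.98 and 0.96 in set 2, then 1.64 and 1.98 in set 3, against 1.18 and 1.14 in wild-type set 1 and 1.28 and 1.22 in set 2. Mutant set 3 was highest and mutant set 2 lowest, with the wild type between them (0.09 ± 0.20, 95% interval -0.38 to 0.56, limma adjusted p = 0.777; F test among mutant sets, adjusted p = 0.089). Only 4.31% of tested genes had a lower mean. It made up 2.49% to 4.93% of the summed TPM of both alpha subunits in mutant and 2.28% to 2.78% in wild-type libraries.

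The genes of VHL, which binds the hydroxylated alpha protein, and FIH, which modifies it at another residue, did not pass the test. Vhl (ENSMUSG00000033933.13, chromosome 6, 113623959 to 113631633, plus strand, protein coding) had 20.72 and 22.08 TPM in mutant set 1, 17.53 and 19.57 in set 2, then 20.20 and 20.91 in set 3, against 19.19 and 18.47 TPM in wild-type set 1 and 20.18 and 19.49 in set 2. The groups overlapped (0.06 ± 0.10, 95% interval -0.17 to 0.28, limma adjusted p = 0.714). Hif1an (ENSMUSG00000036450.4, chromosome 19, 44562850 to 44576274, plus strand, protein coding) had 11.77 and 10.05 TPM in mutant set 1, 10.97 and 11.03 in set 2, then 13.15 and 11.11 in set 3, against 10.54 and 11.81 TPM in wild-type set 1 and 10.53 and 10.91 in set 2. These too overlapped (0.04 ± 0.10, 95% interval -0.19 to 0.28, limma adjusted p = 0.780). Both intervals overlapped that of Egln1 (0.15 to 0.60). Overlap of intervals is no test, and whether Vhl or Hif1an changed less than Egln1 was not tested. For both genes differences between the genotypes up to 0.28 remain possible.

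**Figure D3:**
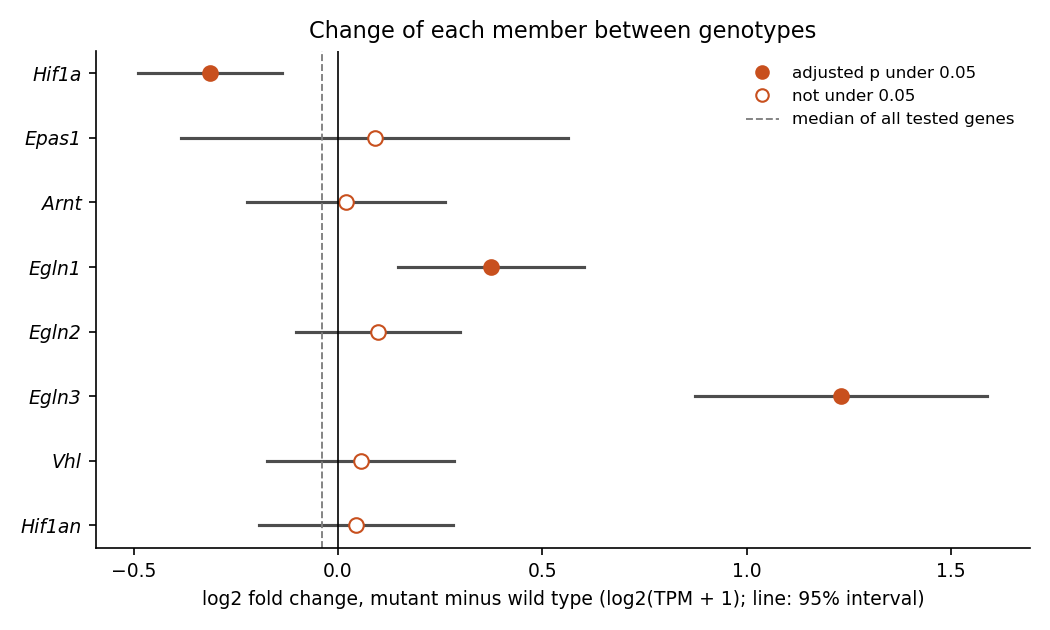
Log2 fold change of each of the 8 genes (mutant minus wild type, log2(TPM + 1)) with its 95% interval from limma. Filled points passed an adjusted p of 0.05, and the dashed line is the median of all tested genes (-0.04). Egln3 at 1.23 stands far to the right of the other 7.

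By level over the 10 libraries the order was Arnt (mean 51.1 TPM), Hif1a (40.8), Egln1 (29.3), Egln2 (26.3), Vhl (19.8), Egln3 (17.6), Hif1an (11.2) and Epas1 (1.31). In the wild type Egln3 (9.34 ± 2.10 TPM) lay below Hif1an (10.9 ± 0.322 TPM) by less than its spread, whereas in the mutant Egln3 (23.1 ± 2.50 TPM) lay above Vhl (20.2 ± 1.46 TPM). Egln1 and Egln2 in the wild type (24.8 ± 1.84 and 25.2 ± 0.283 TPM) differed by less than the spread between sets. The summed hydroxylase TPM was 2.05 to 2.39 times that of Hif1a in mutant libraries and 1.17 to 1.34 times in wild-type libraries.

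The 3 calls differed in how far they rested on single sets. Without wild-type set 1 no member was called, with adjusted p of 0.054 for Egln3, 0.125 for Egln1 and 0.184 for Hif1a, and without wild-type set 2 none was called either (0.053, 0.244 and 0.150 in that order). In both fits the lone wild-type set is assumed to vary like the mutant sets. Hif1a also lost its call without mutant set 1 (0.085) or set 3 (0.076), and Egln1 without mutant set 1 (0.112), 2 (0.071) or 3 (0.055), without the second library of wild-type set 1 (0.056), or without the first library of mutant set 1 (0.055) or set 3 (0.052). Over 26 alternatives the log2 fold change stayed between 1.02 and 1.44 for Egln3 (adjusted p 1.5e-05 to 0.054), between 0.30 and 0.45 for Egln1 (6.9e-04 to 0.244) and between -0.35 and -0.26 for Hif1a (1.8e-04 to 0.184). The lowest adjusted p of each came from the fit of 10 libraries with no set term. That fit treats the 2 libraries of a set as independent. The same holds for the lowest values given below for Cited1, Jmjd7, P4ha2 and Glud1. Single libraries of the genotypes were apart for the 3 called members. So were those of 31.8% of all tested genes (12.4% higher and 19.4% lower in the mutant).

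Rescaling the libraries moved the balance of all calls and kept the calls of Egln3, Egln1 and Hif1a. As deposited, 892 genes were higher and 1350 lower in the mutant (39.8% higher). Median-of-ratios rescaling gave 1097 higher against 1096 lower, and quantile normalization gave 1073 against 1039 (50.8%). Under these 2 scalings Egln3 was at 1.27 and 1.25, Egln1 at 0.41 and 0.41 and Hif1a at -0.27 and -0.26, each still called.

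Related genes were grouped by role in 6 lists of 120 genes outside the members, of which 107 rows were tested, 23 rose and 13 fell. Each list is described by its counts and its median, beside a median of -0.04 and 17.5% called over all tested genes. No list was tested as a whole, and the lists too were chosen with earlier results of these data known.

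Of 20 genes of the VHL ubiquitin ligase and of HIF turnover, all tested, 5 fell and the rest did not pass (median log2 fold change -0.12). After median-of-ratios rescaling 1 was higher and 3 lower, and after quantile normalization 1 was higher and 4 lower. Omitting either wild-type set or mutant set 3 left 0 calls, and omitting mutant set 1 left 1. Both elongin partners of VHL were among them. Eloc had 151 ± 11.1 TPM in the mutant and 195 ± 6.07 TPM in the wild type (-0.37 ± 0.08, adjusted p = 0.027), and Elob, named after its value was seen, 846 ± 21.7 and 1069 ± 42.2 TPM in that order (-0.34 ± 0.06). Siah2, a ubiquitin ligase of the prolyl hydroxylases, had 2.91 ± 0.247 TPM in the mutant and 5.44 ± 0.682 TPM in the wild type (-0.72 ± 0.14, adjusted p = 0.019). Sirt1, a deacetylase, had 28.2 ± 2.75 TPM in the mutant and 40.4 ± 3.80 TPM in the wild type (-0.51 ± 0.11, adjusted p = 0.025). Eloc lost its call after median-of-ratios (adjusted p = 0.056) and quantile rescaling (0.064) and without the first library of mutant set 2 (0.054). Eloc, Siah2 and Sirt1 each lost theirs without either wild-type set or without mutant set 1 or 3 (adjusted p 0.0504 to 0.185 over these). Hsp90ab1, a chaperone that holds HIF-1α, was the fifth (-0.30 ± 0.08), also named after its value was seen.

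Of 13 coactivators and competitors, 2 rose and 4 fell (median -0.29), with the CITED proteins, which bind the CBP and p300 coactivators, moving apart. Omitting either wild-type set left a count of 0 in place of 6, omitting mutant set 1 left a count of 2, and omitting mutant set 3 a count of 3. Cited4 had 5.19 ± 0.844 TPM in the mutant and 1.74 ± 0.343 TPM in the wild type (1.17 ± 0.17, adjusted p = 0.0095). Cited2, a HIF target that competes with HIF-1α for these coactivators, had 10.4 ± 1.05 TPM in the mutant and 18.6 ± 2.82 TPM in the wild type (-0.78 ± 0.13, adjusted p = 0.015). Both lost their call without wild-type set 1 (0.061 for Cited4 and 0.067 for Cited2) or set 2 (0.106 and 0.140). Cited1 had 3.83 ± 0.303 TPM in the mutant and 5.82 ± 0.520 TPM in the wild type (-0.51 ± 0.13, adjusted p = 0.042), a call lost in 15 of 25 alternatives (adjusted p 0.026 to 0.214), among them leaving out either wild-type set, mutant set 1 or 3, the first library of either wild-type set, either library of mutant set 1 or 3, or the second of mutant set 2. The coactivators themselves, Ep300 (-0.29 ± 0.13) and Crebbp (-0.38 ± 0.12), did not pass and were named after their values were seen.

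Of 16 relatives with PAS domains, most of them bHLH-PAS factors, 6 averaged at least 1 TPM and were tested, and 0 passed in limma. Without mutant set 2 the count was 2, both higher. Arntl, the clock factor BMAL1, was at 9.54 ± 0.583 TPM in the mutant and 12.3 ± 0.131 TPM in the wild type (unadjusted p 0.012, adjusted p = 0.060), and Per3, another clock gene, at 2.52 ± 0.578 and 1.43 ± 0.0530 TPM in the same order (unadjusted p 0.025, adjusted p = 0.093). Arntl and Per3 each passed the adjusted threshold in 3 alternatives. For Arntl these were all fits on single libraries (limma adjusted p 0.011 with set as a random block, 0.0013 with no set term). Per3 was at 0.058 and 0.011 in those 2 fits. Hif3a, the remaining alpha subunit, was at 5.37 ± 1.12 TPM in the mutant and 3.64 ± 0.0778 TPM in the wild type (adjusted p = 0.109), above Epas1 in both. Arnt2, a close relative of Arnt, averaged under 1 TPM and was not tested. These last 2 genes were named after their values were seen.

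Of 26 dioxygenases that use oxygen and 2-oxoglutarate or are otherwise oxygen dependent, 25 were tested, 5 rose and the rest did not pass (median -0.02). P4ha1, P4ha2 and Plod2, 3 of these 5, are also among the textbook HIF targets below and count in both lists. Omitting wild-type set 1 left 1 call, omitting wild-type set 2 left 0, and omitting mutant set 1 or 3 left 2. Omitting the first library of wild-type set 1, the second of wild-type set 2, the second of mutant set 1 or 3 or the first of mutant set 2 left 3. Kdm4b, a histone H3 demethylase induced by HIF, had 46.8 ± 1.52 TPM in the mutant and 26.7 ± 5.82 TPM in the wild type (0.80 ± 0.13, adjusted p = 0.013). Jmjd7 (0.57 ± 0.15, adjusted p = 0.044) and the collagen prolyl hydroxylase P4ha2 (0.56 ± 0.15, adjusted p = 0.045) rose as well, calls lost in 12 and 14 of 26 alternatives (adjusted p 0.0032 to 0.253 for Jmjd7 and 0.0070 to 0.236 for P4ha2). Both calls were lost without either wild-type set, mutant set 1 or 3, the first library of wild-type set 1, the second of wild-type set 2, the second of mutant set 1 or 3, or the first of mutant set 2, and that of P4ha2 also without the first library of mutant set 1 or 3. Kdm4b lost its call without wild-type set 2 (0.091). The oxygen-sensitive histone demethylases Kdm6a (-0.32 ± 0.10) and Kdm5a (-0.22 ± 0.11) and the cysteamine dioxygenase Ado (0.16 ± 0.10) did not pass and were named after their values were seen.

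Of 16 enzymes that make or use 2-oxoglutarate, succinate or fumarate, 1 rose and 2 fell (median -0.08). Idh1, which makes 2-oxoglutarate in the cytosol, had 117 ± 14.5 TPM in the mutant and 239 ± 17.2 TPM in the wild type (-1.03 ± 0.11, adjusted p = 0.0047), a larger change than in any other gene of this list. Idh3b, a subunit of the mitochondrial NAD-linked enzyme, had 168 ± 6.81 TPM in the mutant and 109.6 ± 2.68 TPM in the wild type (0.61 ± 0.07, adjusted p = 0.0055). Without wild-type set 1 or set 2 neither was called (0.055 and 0.063 for Idh1, 0.056 and 0.070 for Idh3b). Glud1, glutamate dehydrogenase, fell (-0.31 ± 0.08, adjusted p = 0.045), a call lost in 15 of 26 alternatives (adjusted p 0.0018 to 0.209), including quantile rescaling (0.145) and leaving out either wild-type set, mutant set 1 or 2, either library of mutant set 1 or 2, the second of mutant set 3 or wild-type set 1, or the first of wild-type set 2.

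Textbook HIF targets, without Egln1 and Egln3, showed the highest share of calls among the lists. Of 33 genes, 30 averaged at least 1 TPM and were tested in 31 rows (Aldoa has 2), and 18 rows rose and 2 fell, with a median of 0.41. Higher expression of hypoxia genes in these libraries was known when the list was made, so the count is no independent evidence. Bnip3, a mitophagy receptor, had 314 ± 16.3 TPM in the mutant and 135 ± 7.77 TPM in the wild type (1.22 ± 0.07, adjusted p = 0.0019), a change close in size to that of Egln3. Bhlhe40, a repressor, rose by 1.13 ± 0.16 and Ndrg1, a growth regulator, by 1.10 ± 0.08 on the log2 scale. Bnip3 and Ndrg1 were called in all 26 alternatives and Bhlhe40 in all but those without wild-type set 1 (0.081) or set 2 (0.073). The 2 that fell, Ak4 (-0.61 ± 0.07) and Mxi1 (-0.40 ± 0.09), and the targets Kdm3a (-0.02 ± 0.08), Ldha (0.18 ± 0.09) and Pdk1 (0.19 ± 0.10), which did not pass, were named after their values were seen. The count rested on few sets, with 2 higher and 1 lower without wild-type set 1, 2 higher and 0 lower without wild-type set 2, 10 higher and 1 lower without mutant set 1, and 11 higher and 1 lower without mutant set 3.

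**Figure D4:**
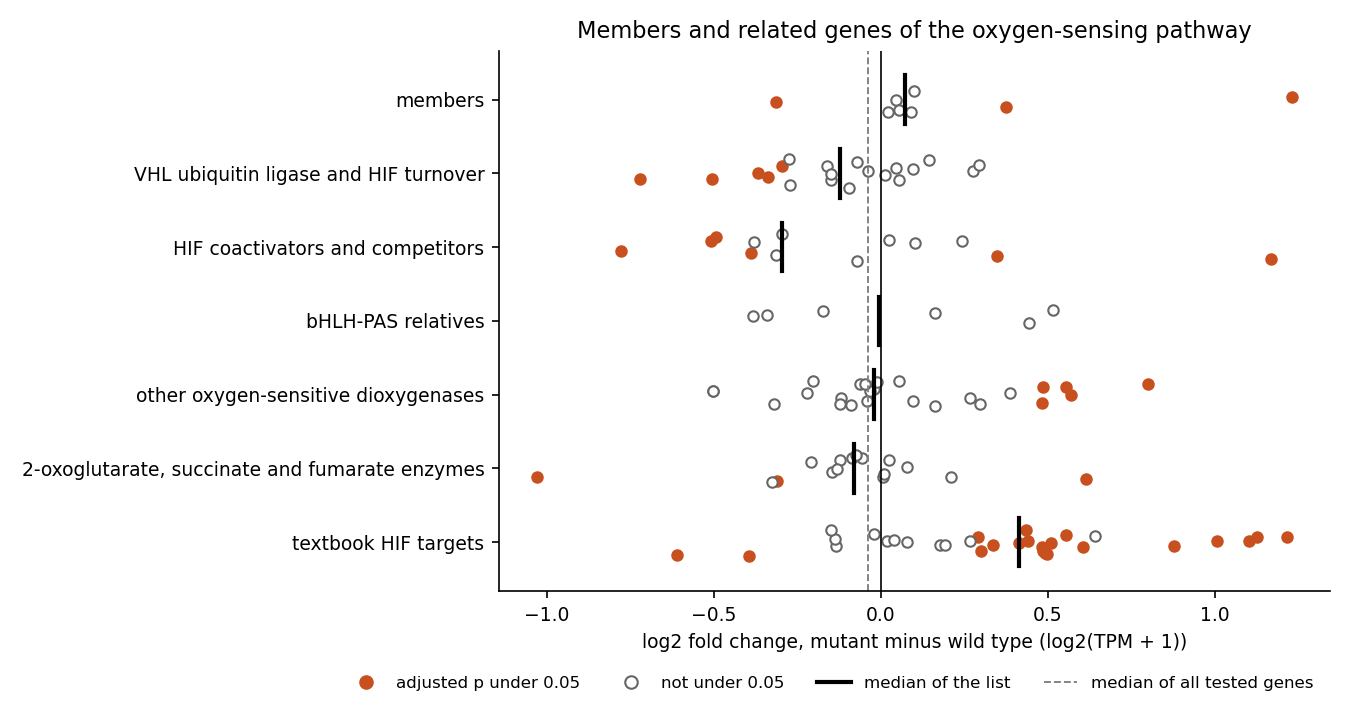
Log2 fold change (mutant minus wild type, log2(TPM + 1)) of each of the 8 genes (top line, members) and each tested gene of the 6 lists, filled where the adjusted p was under 0.05, with the list median as a bar and the median of all tested genes (-0.04) dashed. Of the 6 lists, textbook HIF targets have the highest median, 0.41, and the coactivators the lowest, -0.29.

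As a description of likeness, the genes whose log2(TPM + 1) followed each changed member most closely over the 10 libraries were named. For Egln3 these were Icam1 (an adhesion molecule, Pearson r = 0.993), Bloc1s2 (0.993) and Ddit4 (an mTOR inhibitor, 0.992). For Egln1 they were the glycolytic enzymes Pgam1 (0.985), Eno1b (0.981) and Eno1 (0.980), of which the enolase genes are near-identical copies whose reads may not be told apart. For Hif1a they were Lcor (0.988), Nrp2 (0.987) and Adss (0.985). The libraries share genotype and set, and the absolute r was above 0.9 for 11.3% of tested genes with Egln3, 6.03% with Egln1 and 10.1% with Hif1a.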

How the data were processed

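The authors deposited 1 table of TPM values, by gene and library. The submitters' processing notes name Trim Galore, STAR, RSEM, DESeq2 and mm10. Versions, settings and use of strand: not given in the sources used here. Positions come from GENCODE M21 (GRCm38), where all 8 members matched by identifier.

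The members and gene lists were chosen with earlier results of these data known. The 12797 genes averaging 1 TPM or more across the 10 libraries were put on the log2(TPM + 1) scale. The 2 libraries of a set were averaged, and mutant set means were compared with wild-type set means by limma 3.58.1 in R 4.3.3 (two-sided moderated test with a trended variance prior, 4.01 prior and 3 residual degrees of freedom). P-values were adjusted over all these genes by the Benjamini-Hochberg method, and 0.05 was the threshold. DESeq2 was not run, since TPM are not counts. Differences between sets were tested in a 5-set model of the 10 libraries (5 residual and 2.86 prior degrees of freedom). Libraries of a set had r of 0.984 to 0.986 and those of different sets 0.962 to 0.984 over tested genes, and at most 1.02% of values were identical within a set.

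The fit was tested on simulated data. Named genes were the members, from each list the 3 called genes that changed most (without any call, the 2 of lowest p), per changed member the 3 most alike genes, and the most abundant marker per cell type. Alternatives were another pseudocount, other filters, rescaling, fits on libraries, blocks, variance priors, and leaving out each set and library. Figures were drawn with matplotlib 3.10.9.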

Additional observations from a re-analysis of the deposited data

How the results depend on the processing

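Direction was kept by Egln1, Egln2, Egln3, Vhl and Hif1an, and by Hif1a, in all 26 alternatives. The lowest log2 fold change was 0.061 for Egln2, 0.013 for Vhl and 3.5e-04 for Hif1an. These 3 genes were called in no alternative, so their kept sign does not show a change. Epas1 reversed to -0.039 with the set number as a block and without mutant set 3. Arnt reversed to -0.064 in both, -0.032 without wild-type set 2 and -0.012 without the first library of mutant set 1. The block and the omission of mutant set 3 give the same estimates, since the wild type has no set 3 and the block absorbs it. Without mutant set 2 Epas1 and Arnt stood at 0.216 and 0.073, and neither gene was called in any alternative. The count of called genes (2242) was 809 with no filter, 3398 in a fit of single libraries with a random effect of set (correlation within a set 0.509), 5269 with no set term, and 42 to 2393 leaving out a set or library. The 3 called members were 1 with no filter (Hif1a at adjusted p 0.052 and Egln1 at 0.086 lost, among 26268 tested genes), 1 without the variance trend (Hif1a at 0.060 and Egln1 at 0.065 lost) and 0 to 3 leaving out a set or library. The 36 calls among related genes were 14 with no filter, 59 with no set term and 2 to 37 leaving out a set or library. Both the unfiltered fit and the set-number block gave 0 calls for VHL and turnover, 1 for coactivators and 1 for dioxygenases. For textbook HIF targets the unfiltered fit gave 11 calls (10 higher and 1 lower) in place of 20. The 1 member called among mutant sets was 0 when unfiltered, 2 above a minimum mean of 5 TPM (with Arnt), after either rescaling (with Egln1) and without the variance trend (with Epas1), and 0 to 1 leaving out a library. The 1 called between wild-type sets was 0 to 1 leaving out a library. The cause of these moves was not tested. The unfiltered fit differs both in the number of tests and in the genes that set the variance prior, and a left-out set leaves fewer set means.

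Library numbers did not pair the samples, with correlations of library differences between sets from -0.076 to 0.116. As a replicate block they gave 4998 called genes and 56 calls among related genes, close to the fit of 10 libraries with no block. Same-numbered sets had correlations of -0.164 and -0.090 between their deviations from the group mean. The deviations of the wild-type sets are mirror images, so both values rest on the same wild-type difference. No pairing by set number was seen, but these values cannot exclude a shared day or batch. Set means with the set number as a replicate block gave 571 called genes, 1 called member (Egln3, adjusted p = 0.030) and 11 calls among related genes. The named related genes kept direction in all their alternatives. Depth is unknown, so the counting error of a low gene such as Epas1 cannot be given. Dixon's test flagged no library in the members' 16 groups of libraries. That test takes the libraries as independent, whereas here they are nested in sets. A gap between sets can hide a lone library, so the test cannot exclude one.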
